A study of Mus musculus with 10 samples.

Results

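A set of 10 mouse genes is described here: Pias4, Rab4a, Zglp1, Cpt1b, Grin3b, Urm1, Cercam, Gdf1, Upf1 and Habp2. Each was methylated at the gene end with more measured CpG cytosines. They are 10 of the 14555 autosomal protein-coding genes with at least 3 measured CpG cytosines within 1000 bp of a gene end, and they were chosen by the measured methylation of that end in these same libraries. The levels of the opposite ends were also in view then. The levels of both ends are therefore a description and carry no test. For each gene the cytosines from 2 kb before to 2 kb after its RefSeq span were taken, 1421 in all. The end with more measured cytosines within 1000 bp is called the dense end and the other one the opposite end. This counts what was measured and not the CpG content of the sequence, so an opposite end can also be rich in CpG. Methylated reads were divided by coverage at each cytosine and averaged over the cytosines to give a level, with the counts of all libraries summed first unless a library is named. The working name of the set calls the genes somatic, which methylation counts do not measure.

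The study used reduced representation bisulfite sequencing (RRBS), in which CpG-rich restriction fragments are sequenced after bisulfite has converted unmethylated cytosines. The samples were single mouse embryos at embryonic day 7.5, around gastrulation, 5 labelled as controls and 5 labelled as arsenic, in the study's second experiment. The labels give no dose, timing or route of arsenic, and no strain or sex. The name of the deposited count table marks the embryos as F2 generation, so the arsenic label need not mean direct exposure of embryos. The deposited count table numbers its libraries 1 to 10 and ties none of them to an embryo or a group, so no control and arsenic values could be compared, and the libraries are shown as 1 set by their lowest, median and highest level.

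Methylation of CpG sites is copied through cell division and is found over most of the mammalian genome. CpG islands at gene starts are the usual exception: they mostly stay unmethylated, whether or not the gene is active. CpGs in gene bodies and at gene 3′ ends are mostly methylated, and a methylated island at a start is a known feature of lasting silencing, as in germline genes outside the germline. In embryos around gastrulation most of the methylation erased in the early embryo has been laid down again. Which end of a gene is methylated therefore matters for how a methylated dense end is read.

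Strand was taken from RefSeq promoter sequences of GRCm38.p6, the build that mm10 names, and 7 of the 10 genes were found there. The dense end was the 3′ end in Grin3b, Urm1, Gdf1, Upf1 and Habp2, and the 5′ end of the gene span in Zglp1 and Cercam. Pias4, Rab4a and Cpt1b are described by their lower- and higher-coordinate ends. As background from general knowledge of the mouse annotation, and not from the tables used here, Pias4 and Cpt1b are known as minus-strand genes and Rab4a as a plus-strand gene. That would make the dense end of Pias4 and of Rab4a a 3′ end and that of Cpt1b a 5′ end. Exons, introns and UTRs were not analysed here.

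The promoter windows of Zglp1, Upf1 and Urm1 show the contrast between a methylated and an unmethylated start. Each runs from 250 bases before to 50 after the RefSeq start, is read 5′ to 3′ along the gene, comes from RefSeq (GRCm38.p6), and has in capitals the CpGs that these libraries measured. Zglp1 (chr9:21067044-21067343, minus strand) is the one gene, of the 7 with a start in the table, whose RefSeq start lies in its methylated dense end. Upf1 (chr8:70353230-70353529, minus strand) and Urm1 (chr2:29827139-29827438, plus strand) have starts at their opposite, unmethylated end.
Zglp1: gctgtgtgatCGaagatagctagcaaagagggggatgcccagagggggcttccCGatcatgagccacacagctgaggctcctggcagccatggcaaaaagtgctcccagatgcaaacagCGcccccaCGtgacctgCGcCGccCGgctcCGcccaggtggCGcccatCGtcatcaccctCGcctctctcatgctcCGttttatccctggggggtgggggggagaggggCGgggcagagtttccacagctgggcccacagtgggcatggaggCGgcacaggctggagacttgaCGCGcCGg
Upf1: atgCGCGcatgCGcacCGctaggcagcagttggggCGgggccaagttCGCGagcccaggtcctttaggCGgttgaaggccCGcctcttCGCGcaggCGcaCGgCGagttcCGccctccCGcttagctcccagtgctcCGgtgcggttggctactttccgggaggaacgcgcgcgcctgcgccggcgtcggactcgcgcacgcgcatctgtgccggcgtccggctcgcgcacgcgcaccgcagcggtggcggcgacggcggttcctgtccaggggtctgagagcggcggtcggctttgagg
Urm1: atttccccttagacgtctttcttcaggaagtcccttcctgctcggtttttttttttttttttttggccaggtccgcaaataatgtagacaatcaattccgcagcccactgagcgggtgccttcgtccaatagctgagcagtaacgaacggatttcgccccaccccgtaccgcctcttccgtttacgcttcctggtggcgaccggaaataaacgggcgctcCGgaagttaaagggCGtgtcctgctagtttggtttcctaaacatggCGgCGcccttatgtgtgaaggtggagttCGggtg
All 17 CpGs of the Zglp1 window were measured, and their mean level was 58.2%. Of the 47 CpGs of the Upf1 window 17 were measured, all before the start, with a mean of 0.69% and a highest CpG of 4.78%. The Urm1 window holds 22 CpGs, of which 5 were measured, with a mean of 2.04%. The median over all 32851 promoter windows of this length was 7 CpGs, so each of these windows is richer in CpG than most. They differ in the ratio of observed CpGs to those expected from base content, 0.53 in Zglp1, 1.20 in Upf1 and 1.09 in Urm1.

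**Figure D1:**
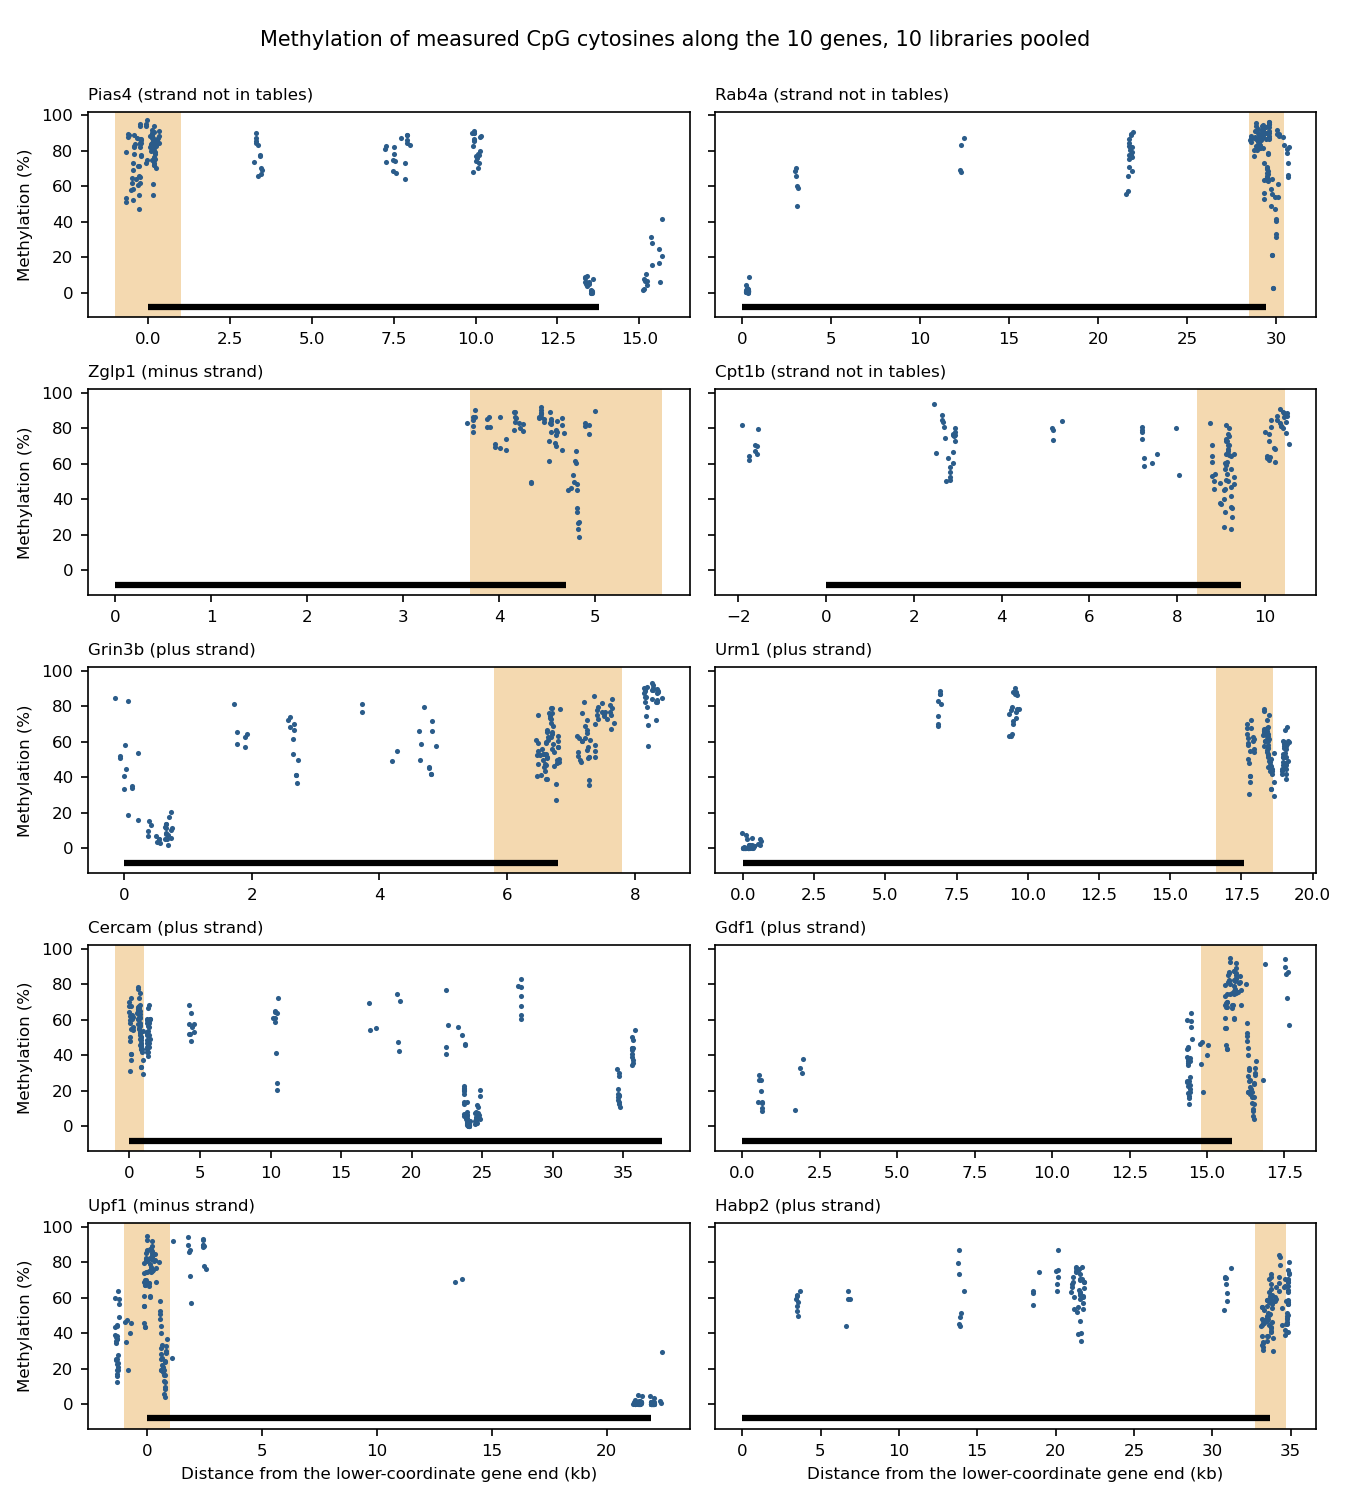
Methylation (%, vertical axis) of each measured CpG cytosine, 10 libraries pooled, against its distance in kb from the lower-coordinate end of the gene (horizontal axis); the black bar is the gene span and the shaded band the 1000 bp on either side of the dense end. In Pias4, Rab4a, Urm1 and Upf1 the opposite end sits near 0, and in Cercam most of the low cytosines sit about 24 kb inside the span, with a smaller group at 34.5 kb.

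The libraries were alike in depth and in global level. Coverage summed over the 2391795 cytosines of the table ran from 94583116 to 127102232, and every cytosine had at least 10 reads in every library. Averaged over autosomal cytosines, the level was 41.6% pooled, and 40.3% to 42.8% in single libraries. Read intervals quoted here are 95% Wilson intervals and cover counting error only. They are too narrow even for that, since a read counts at each CpG it spans and reads carry no molecular identifiers. At the dense ends the summed coverage ran from 30817 at Cpt1b to 52221 at Rab4a.

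Over the 10 genes the median dense-end level was 59.2%, and from the lowest to the highest library these ends spanned a median of 10.2 percentage points. Of the 10, 6 had a measured opposite end, with a median level of 2.58%. The median difference between the dense and the opposite end was 55.2 points. In all 6 genes the dense end was higher in 10 of 10 libraries, and the lowest library at the dense end lay above the highest library at the opposite end. Since the genes were chosen with both ends in view, this separation is a description and no independent result. Zglp1, Cpt1b, Cercam and Habp2 had no measured cytosine within 1000 bp of the opposite end, so their ends could not be compared.

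**Figure D2:**
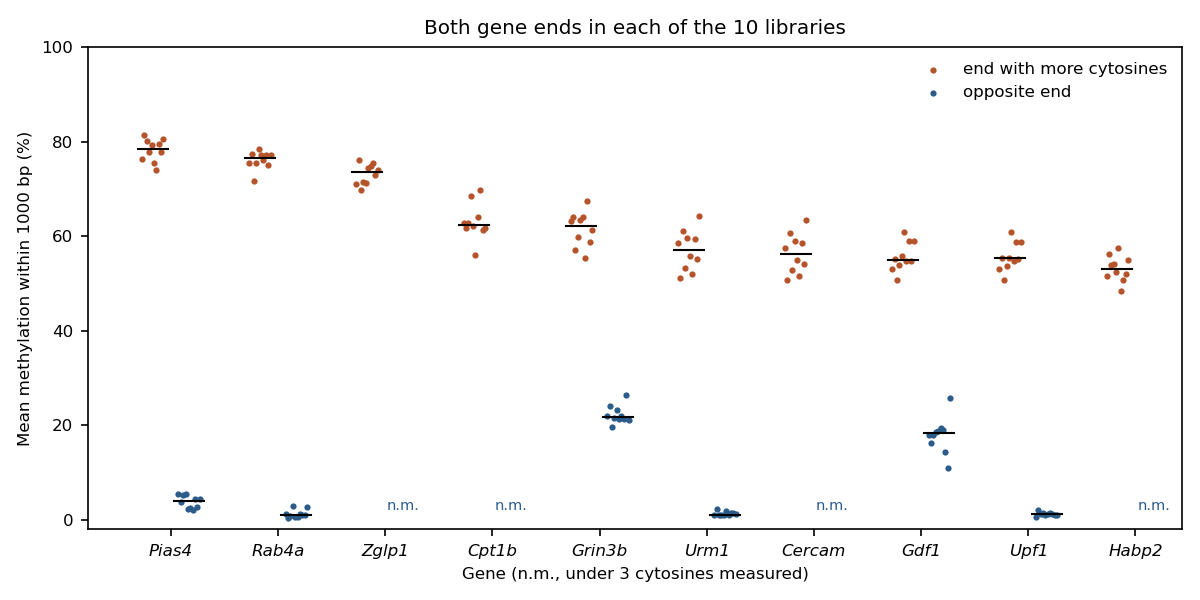
Mean methylation (%) within 1000 bp of both ends of each gene in each of the 10 libraries (points) with the median over libraries (black line); n.m. marks an end with under 3 measured cytosines. Dense-end points lie between 48.3% and 81.4%, above every opposite-end point of the same gene.

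The most methylated dense ends belonged to Pias4 and Rab4a. Pias4 encodes a SUMO E3 ligase of the PIAS family, which attaches the small modifier SUMO to proteins such as transcription factors. Its span is chr10:81153961-81167720. At its lower-coordinate end 86 cytosines had a pooled level of 78.5%, with a lowest library of 73.9%, a median of 78.5% and a highest of 81.4%. Of these cytosines 48 were over 80% and none was under 20%. At the opposite end 18 cytosines had a level of 3.82%, and the libraries lay between 2.13% and 5.51% with a median of 4.02%. The libraries of the ends were thus far apart, by 74.6 points pooled. A window of 2000 bp raised the opposite end of Pias4 to 8.84%, since 15 cytosines farther outside the span were counted then, at 11.4% and 21.9% in neighbouring steps of 500 bp. The 49 cytosines of the gene away from both ends were at 79.4%, like the dense end.

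Rab4a encodes a small GTPase of early endosomes that directs fast recycling of receptors to the cell surface, and it spans chr8:123805846-123835291. The 97 cytosines of its higher-coordinate end had a level of 76.2%, with a lowest library of 71.7%, a median of 76.6% and a highest of 78.3%. At the opposite end 36 cytosines stood at 1.21%, with a lowest library of 0.32%, a median of 0.90% and a highest of 2.83%. As in Pias4, no library came near the values of the other end, and the difference was 74.97 points. Inside the gene span the dense end was at 85.3% over 51 cytosines, and outside it at 66.0% over 46. The lower outside mean included a CpG 384 bp beyond the end with 2.66% on the plus and 2.28% on the minus strand, where the latter ranged from 0 to 5.26% over the libraries. The nearest CpG on the side of the gene, 329 bp beyond the end, was at 20.9% on both strands, and 5 cytosines between 497 and 534 bp beyond it had a level of 38.7%. The 30 cytosines of the gene middle were at 74.2%.

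Zglp1 encodes a GATA-type zinc finger protein known for its role in germ cells and gonads. It spans chr9:21062393-21067093 on the minus strand, and its dense end is its 5′ end. There 77 cytosines had a level of 73.2%, with a lowest library of 69.8%, a median of 73.5% and a highest of 76.2%. The level was not even across the start. The 57 cytosines inside the span were at 80.4%, with libraries from 77.6% to 82.9%, and the 20 cytosines upstream of it at 52.8%, with libraries from 47.5% to 59.4%. Library values inside and upstream did not overlap. Lowest were 8 cytosines between 110 and 131 bp upstream, at 32.3%, with libraries from 27.0% to 37.9%, while the other 69 cytosines of the window were at 78.0%.

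The printed Zglp1 window places this dip. Counted from the RefSeq start, with bases before it negative, the lowest CpG was at -131, with 23.2% and libraries from 17.5% to 30.9%. The next one, at -123, had 25.05% and libraries from 16.4% to 33.1%. It lies within the window's 1 match to CACGTG (an E-box), a sequence found on either strand in 7.15% of all promoter windows. Farther from the start the levels were high again, with 82.2% at -197 and 79.7% at -240. The 13 CpGs before the start averaged 52.0% and the 4 after it 78.3%. The window also holds 3 matches to GGGCGG (a GC box, either strand, found in 35.7% of all promoter windows), and the measured CpGs in them stood at 34.0%, 45.5% and 67.3%. A match of letters is a description and does not show that a factor binds there. The 3′ end of Fdx2, which encodes a mitochondrial ferredoxin and is on the same strand, lies 419 bp upstream of the Zglp1 start, inside the same window.

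Cpt1b encodes the muscle form of carnitine palmitoyltransferase 1, the enzyme that commits long-chain fatty acids to oxidation in mitochondria. It spans chr15:89416405-89425862. The 69 cytosines of its higher-coordinate end had a level of 62.8%, with a lowest library of 56.1%, a median of 62.4% and a highest of 69.8%. This was the widest spread over libraries among the dense ends, 13.7 points. Here the pattern across the end was the opposite of that at Zglp1 and Rab4a. The 47 cytosines inside the span were at 56.1%, with libraries from 49.2% to 66.1%, and the 22 outside at 77.3%, with libraries from 70.7% to 83.4%, and these did not overlap. Those 22 lie next to the 3′ end of Chkb, which encodes choline kinase beta and ends 487 bp away on the minus strand. The 36 cytosines of the middle of Cpt1b were at 71.7%.

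Of the 5 genes with a methylated 3′ dense end, all but Habp2 had a measured 5′ end, and these 5′ ends differed in level. Grin3b encodes GluN3B, a glycine-binding subunit of NMDA-type glutamate receptors, and spans chr10:79970397-79977190 on the plus strand. Its 3′ end had 100 measured cytosines at 61.1%, with a lowest library of 55.4%, a median of 62.2% and a highest of 67.4%. The 5′ end had 37 cytosines at 22.4%, with a lowest library of 19.5%, a median of 21.6% and a highest of 26.3%. The libraries of the ends did not overlap, though this 5′ end was the most methylated of the 6 measured opposite ends. On the minus strand alone it was below that of Gdf1, 16.8% against 18.2%, and it was also below the 34.9% at a second start of Gdf1. It was also uneven, since 25 of its cytosines were under 20% and 2 over 80%. In steps of 500 bp the level went from 55.3% before the span over 31.2% to 9.004% between 500 and 1000 bp into it, and it was 65.0% between 1500 and 2000 bp and 51.9% to 84.4% in the steps beyond.

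The level of the Grin3b 5′ end therefore depended on which cytosines were counted. It was 46.8% with at least 20 reads in every library, 36.6% within 500 bp of the span edge, 31.6% from plus-strand and 16.8% from minus-strand cytosines. Its difference from the 3′ end, 38.7 points, was 15.6 points with at least 20 reads and 21.0 points within 500 bp of the span edges. The RefSeq start of Grin3b lies 327 bp into the span, and within 500 bp of that start the same 37 cytosines were counted, at 22.4%. At 1 CpG, 72 bp into the span, the plus strand was at 83.2% with libraries from 72.7% to 91.4%, and the minus strand at 18.6% with libraries from 8.41% to 29.2%. That gap of 64.5 points was the largest between strands of a CpG in the 10 gene regions, and its cause was not tested. The lower end of Tmem259, which encodes the membrane protein membralin, lies 70 bp inside the Grin3b span, and its window holds the same 100 cytosines. The opposite end of Tmem259 was at 0.89%.

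Urm1 and Cercam are neighbours on chromosome 2 with ends 98 bp apart, and they share 1 methylated stretch. Urm1, which encodes a ubiquitin-related sulfur carrier for the thiolation of transfer RNA, spans chr2:29827389-29844996 on the plus strand. All 67 cytosines of its 3′ dense end lie beyond the span, and all 67 also belong to the 70 of Cercam, or 95.7% of them. Their level was 57.2%, with a lowest library of 51.2%, a median of 57.1% and a highest of 64.3%, and every one of them was between 20% and 80%. The 5′ end of Urm1 had 49 cytosines at 1.33%, with a lowest library of 0.94%, a median of 1.08% and a highest of 2.19%. These ranges were far apart, by 55.9 points pooled. The 26 cytosines of the Urm1 middle were at 78.6%, above the shared stretch.

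Cercam encodes a protein of the collagen galactosyltransferase family described from brain endothelium. Its RefSeq span, chr2:29845094-29882840 on the plus strand, opens with the stretch shared with Urm1, at 56.5% over 70 cytosines, with a lowest library of 50.7%, a median of 56.2% and a highest of 63.4%. The RefSeq start in the promoter table lies 24400 bp farther into the span. Within 1000 bp of that start 63 cytosines had a level of 8.15%, with a lowest library of 6.95%, a median of 7.94% and a highest of 9.89%, and within 500 bp 44 cytosines had 3.81%. Cercam thus had a methylated 5′ edge of its span and a low level at its listed start, and the library values did not overlap. Between them, windows of 500 bp with measured cytosines were at 51.2% to 74.3%.

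The stretch between Urm1 and Cercam also holds the hairpins of 2 microRNA genes on opposite strands, Mir219a-2 (chr2:29845631-29845727, minus strand) and Mir219b (chr2:29845647-29845711, plus strand). miR-219a is a microRNA known for its role in the maturation of myelin-forming oligodendrocytes. The Mir219a-2 hairpin is printed to place the measured CpGs, in capitals, and its mature 5p arm with the seed, bases 2 to 8, in capitals. Both come from RefSeq.
Mir219a-2 hairpin: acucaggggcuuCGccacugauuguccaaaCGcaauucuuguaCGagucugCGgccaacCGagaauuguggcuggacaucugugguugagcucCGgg
mmu-miR-219a-5p: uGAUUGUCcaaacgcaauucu
The 11 cytosines in the Mir219a-2 hairpin, counting both strands, had a level of 66.3%, with libraries from 57.6% to 74.6%. In the smaller Mir219b hairpin 8 cytosines had 68.1%, with libraries from 61.1% to 76.2%. The hairpins overlap on the chromosome, so these are largely the same cytosines.

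Gdf1 and Upf1 meet at their 3′ ends on chromosome 8, where their spans overlap by 99 bp. Gdf1 encodes a growth factor of the TGF-beta family that acts with Nodal in left-right patterning, and spans chr8:70315775-70331592 on the plus strand. Upf1 encodes the RNA helicase at the centre of nonsense-mediated decay of messenger RNA, and spans chr8:70331493-70353423 on the minus strand. The 91 cytosines of the Gdf1 dense end and the 92 of the Upf1 dense end share 90, which is 98.9% of the first and 97.8% of the second. Both levels were 55.8%. Libraries ranged from 50.7% to 60.8% with a median of 54.9% for Gdf1, and from 50.7% to 60.9% with a median of 55.3% for Upf1. This is 1 measurement seen from both genes.

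Within that shared stretch the level dropped sharply. A run of 28 cytosines between 600 and 861 bp inside Upf1 had 22.5%, with a lowest library of 15.9%, a median of 22.9% and a highest of 29.2%, and its cytosines went from 4.35% to 43.9%. The other 64 cytosines of the Upf1 window were at 70.3%. The mean of the window thus joined a methylated and a mostly unmethylated piece, and it moved with the cytosines counted. At Upf1 it was 75.01% within 500 bp, 68.2% with at least 20 reads in every library, 63.4% from plus-strand and 50.1% from minus-strand cytosines.

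The opposite ends of this pair differed. The 5′ end of Upf1 had 76 cytosines at 1.15%, with a lowest library of 0.46%, a median of 1.13% and a highest of 1.94%. In the printed Upf1 promoter, 2 matches to GGGCGG and 2 to GCATGCGC (part of the NRF1 motif, either strand, found in 2.71% of all promoter windows) hold measured CpGs at 0.18% to 0.83%. The 5′ end of Gdf1 had only 9 cytosines at 17.8%, with a lowest library of 11.0%, a median of 18.3% and a highest of 25.7%. Its summed coverage of 2796 reads was the thinnest of any measured end, and the read-weighted level of 18.1% had an interval of 16.7% to 19.5%. Both 5′ ends lay below the 3′ stretch in every library, by 54.6 points at Upf1 and 38.0 points at Gdf1. A second RefSeq start of Gdf1, 13990 bp into the span, had 34.9% over 31 cytosines, with libraries from 30.9% to 39.0%. Cers1, which encodes a ceramide synthase and is known to share a transcript with Gdf1, has nearly the same span and the same dense window.

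Habp2 encodes a serine protease of blood plasma that binds hyaluronan and can activate coagulation factor VII. It spans chr19:56287109-56320820 on the plus strand. The 69 cytosines of its 3′ dense end had a level of 53.1%, with a lowest library of 48.3%, a median of 53.1% and a highest of 57.4%. Inside the span 34 cytosines were at 48.0%, with libraries from 43.1% to 54.9%, and outside it 35 were at 58.0%, with libraries from 53.4% to 63.5%, so these ranges overlapped. The 3′ end of Nrap, which encodes a muscle protein that anchors actin and is on the minus strand, lies 783 bp inside Habp2, and the stretch therefore belongs to the 3′ ends of both genes. The 74 cytosines of the Habp2 middle were at 63.4%, above the dense end.

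**Figure D3:**
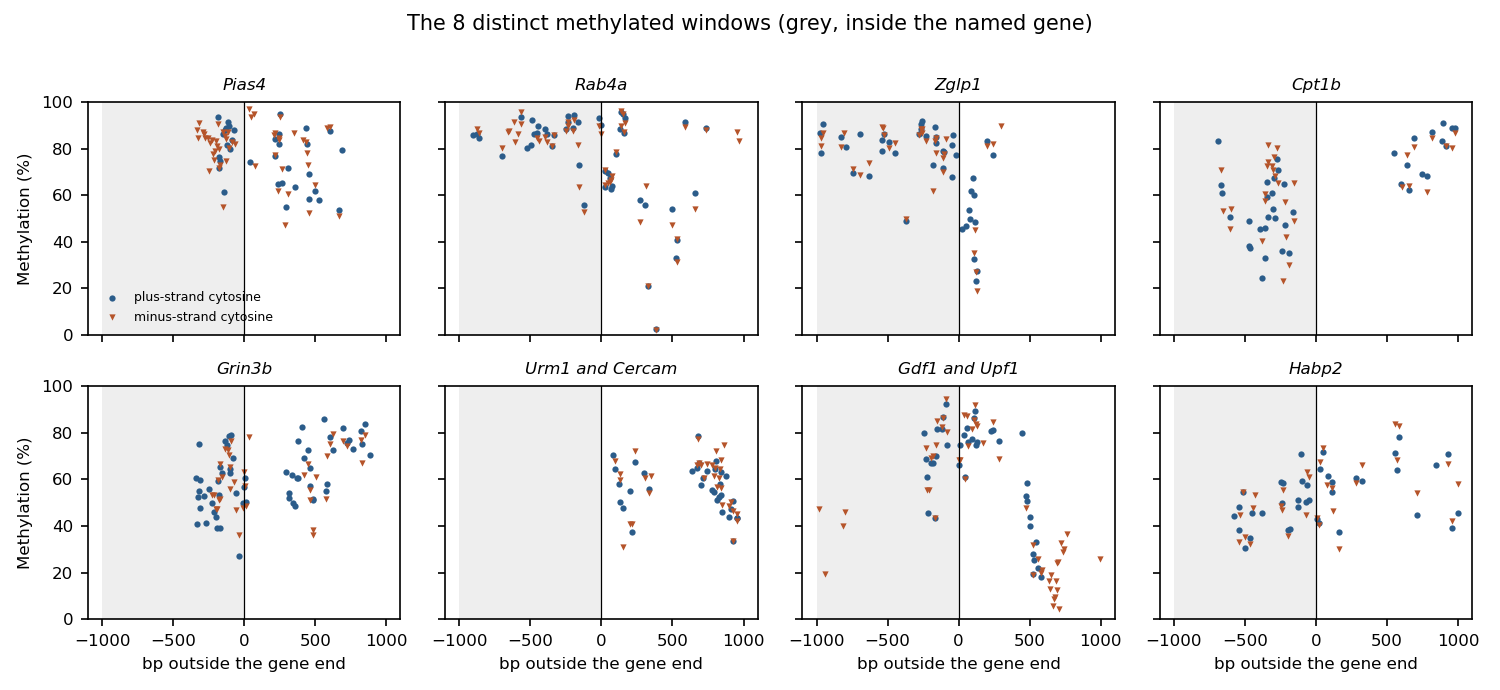
Methylation (%) of single cytosines of the plus strand (circles) and minus strand (triangles), 10 libraries pooled, against the distance in bp outside the gene end, for the 8 distinct dense windows; grey marks the inside of the named gene, or of the first named where 2 share a window. Zglp1 and Rab4a drop outside the gene end, Cpt1b is lower inside it, and Gdf1 and Upf1 drop about 500 bp beyond the Gdf1 end.

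Because of the shared stretches the 10 genes stand for 8 distinct dense windows, with 661 cytosines in all. The same library was not lowest everywhere: library 3 and library 7 were lowest in 3 windows each, and libraries 2, 6 and 8 were highest in 2 each. The median over the 8 windows went from 59.8% in library 7 to 68.6% in library 8. Leaving out any 1 library moved no end's pooled level by more than the spread over libraries. With 10 libraries of like depth, leaving out 1 can move a pooled level only a little, so this is no test of stability.

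Methylation of a dense end was rarer among the ends with many measured cytosines. Over all 14555 dense ends with at least 3 cytosines, 2034 were at 50% or more (14%), and the median level was 3.24%. Of the 3169 autosomal protein-coding genes whose dense end had at least 67 cytosines, the number at Urm1, 18 were at 50% or more (0.568%), and the median level was 1.49%. The 10 genes are among these 18 because they were chosen for it, so no reading is drawn from their share. By end, 5 of 2419 ends known to be 5′ were at 50% or more (0.207%), and 8 of 106 ends known to be 3′ (7.55%), with medians of 1.43% and 4.04%. These counts are of genes, not of distinct windows, and both include genes chosen for their level. The stretch of Gdf1, Cers1 and Upf1 counts for each of them, and that of Urm1 and Cercam as a 3′ and as a 5′ end. Another protein-coding gene's end lay in the window in 966 of the 3169 (30.5%) and in 8 of the 10 described here, all but Pias4 and Rab4a. Urm1 and Cercam hold each other's ends, as do Gdf1 and Upf1, so these stretches count for both genes of a pair. Pias4, Rab4a and Zglp1 were the 3 highest, followed by D1Pas1, a retrogene related to the RNA helicase gene Ddx3x and expressed in the testis, at 68.2%, and Cpt1b. Below Habp2, at 53.1%, came Fam50b at 51.3% and Bnipl at 50.7%, the lowest of the 18.

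**Figure D4:**
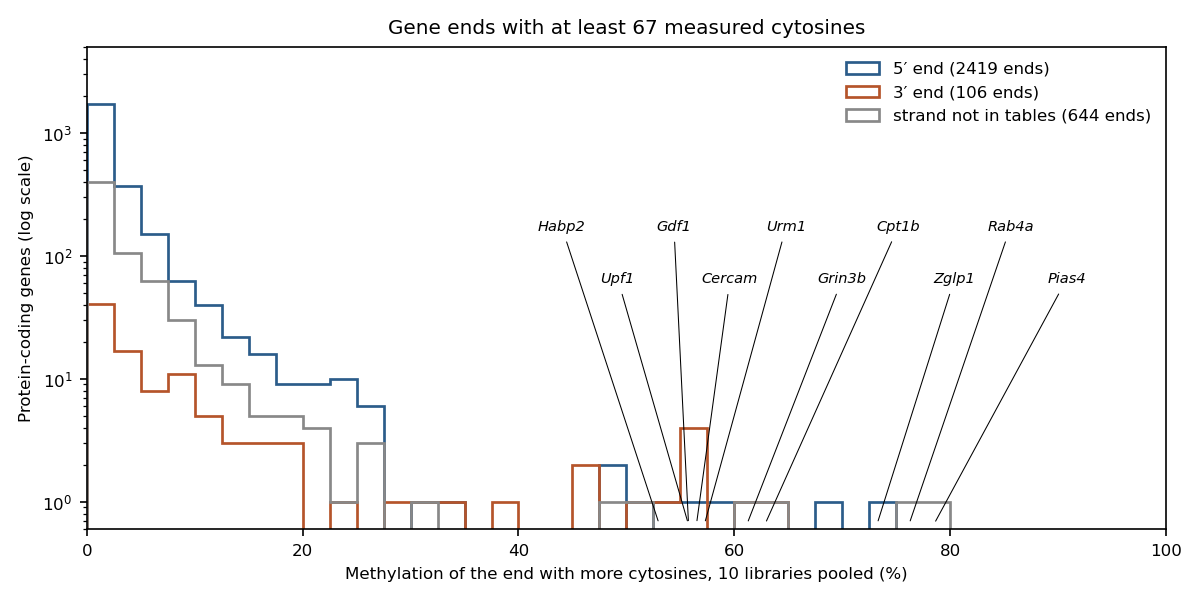
Number of protein-coding genes (log scale) by the level (%) of their dense end, 10 libraries pooled, for the 3169 ends with at least 67 measured cytosines, split by end. Most ends lie in the lowest classes, and lines from the gene names point to the levels of the 10 described genes.

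The relatives of the 10 genes mostly had low levels at their dense ends, as most genes did. Of 40 listed relatives by family or pathway, 35 had at least 3 cytosines at an end, with a median level of 4.42% against 3.24% over all 14555 dense ends with at least 3 cytosines. Of the 35, 30 were under 20%, and 18 of these under 5%, where 75.4% and 57.4% of the 14555 were. The relatives had fewer cytosines at that end than the described genes, a median of 37 against 81.5, and their dense end was a 5′ end in most cases with known strand.

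The SUMO ligase genes Pias1 and Pias3 were at 0.97% and 0.68% at their 5′ dense ends. Pias4 was at 78.5% at its dense end and 3.82% at its opposite end. At its 3′ end Pias1, with only 6 cytosines, was at 78.8%, with libraries from 73.5% to 84.6%, near the dense end of Pias4. The endosomal GTPase genes Rab5a, Rab11a and Rab4b were at 0.77%, 1.09% and 6.92% at their 5′ dense ends. Rab4b was at 33.8% at its 3′ end, over 9 cytosines. In the decay pathway of Upf1, Upf2, Upf3a, Smg1, Smg5 and Smg6 lay between 0.76% and 2.32%, near the 1.15% of the Upf1 5′ end. The 3′ ends of Upf2 and Upf3a, with 5 and 13 cytosines, were at 80.8% and 79.0%, while that of Smg6, with 16 cytosines, was at 25.5%, with libraries from 19.0% to 30.1%. Each of these 3′ ends lay above the 5′ end of its gene, to a different degree. Of the sulfur-transfer genes that work with Urm1, Ctu2 was at 0.74% at its 5′ end and 84.8% at its 3′ end, and Mocs3 at 6.92% and 33.03%.

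Glutamate receptor genes were higher than the decay genes. Grin1, Grin2a, Grin2c, Grin2d and Grin3a lay between 4.24% and 13.0%, and Grin2b at 20.5%. Grin1, like Grin3b, had a 3′ dense end, with 94 cytosines, but its level was 7.51%, with libraries from 6.87% to 8.17%. Those libraries lay far below the 55.4% to 67.4% of the Grin3b 3′ end. At its 5′ end Grin1 was at 27.3%, with libraries from 16.4% to 39.8%, over only 6 cytosines. The order of its ends was thus the reverse of that in Grin3b. Of the other opposite ends, that of Grin3a, with 8 cytosines, was at 81.1% and that of Grin2c, with 24, at 7.62%. The carnitine palmitoyltransferase genes Cpt2, Cpt1c and Cpt1a were at 1.47%, 12.3% and 15.1%, below Cpt1b in every library.

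Few relatives exceeded 20%. Beside Grin2b these were Gata4, a GATA factor like Zglp1, at 22.6% over only 5 cytosines, F12, the coagulation factor XII gene, at 46.9% over only 4, and Gdf3, a growth factor gene related to Gdf1, at 32.7% over 32. Cers1 was the 1 relative at 50% or more, through the window it shares with Gdf1. Among the other GATA genes, Gata2, Gata5 and Gata6 were at 5.42%, 5.89% and 5.22%, and Nodal was at 4.42%. The collagen galactosyltransferase genes Colgalt1 and Colgalt2 were at 2.43% and 3.39%, nearer to the RefSeq start of Cercam than to its span edge. Plat and Plau, the plasminogen activator genes, were at 7.59% and 2.89%, against 53.1% at the 3′ end of Habp2. Strand was not available for Plat and Plau, and the 5′ end of Habp2 was not measured, so unlike ends may be set side by side here.

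**Figure D5:**
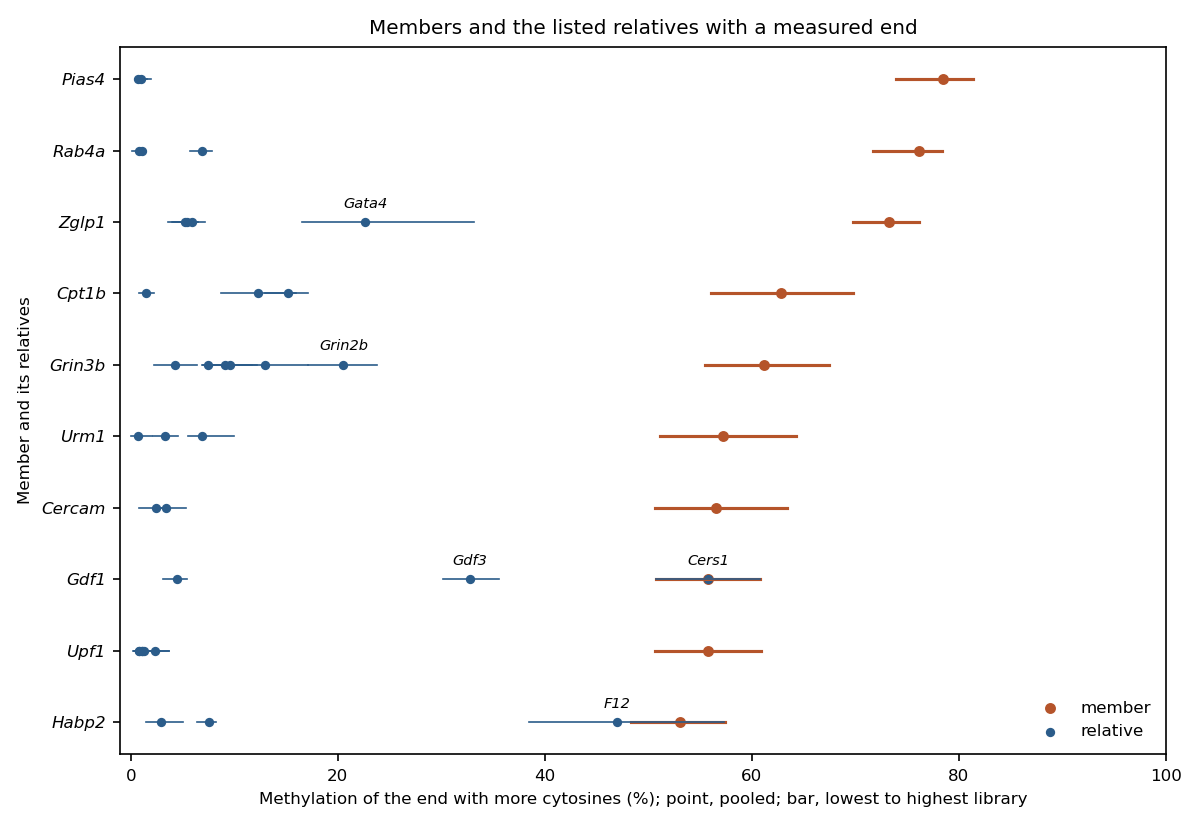
Level (%) of the dense end of each described gene (orange) and of its listed relatives with at least 3 cytosines (blue) in 1 row per gene; points are 10 libraries pooled and bars run from the lowest to the highest library. The Cers1 bar lies on that of Gdf1 because both use the same cytosines, and the F12 bar, from 4 cytosines, overlaps that of Habp2.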

How the data were processed

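DNA methylation was measured in 10 single mouse embryos, with 5 in each labelled group (control, arsenic). Per the labels' protocols, a Qiagen AllPrep column served to purify DNA embryo by embryo, and a NEBNext Ultra II kit to build the libraries. Trim Galore, Bismark and methylKit are the tools, and mm10 the build, in the submitters' processing notes. For versions, settings, deduplication and overlapping mates, nothing was found in the sources used here. Per the file headers, the deposited table gives unnormalized read counts (coverage, methylated reads, unmethylated reads) for each CpG cytosine and library, with strands kept apart. Every cytosine has at least 10 reads in each library, so thinly read sites are missing. The 30 per-sample columns carry only library numbers and were matched to no sample. No test between groups and no mean with SD was therefore made.

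The 10 genes and the lists were chosen with earlier results of these data known. Levels were computed with Python 3.11.15, numpy 2.4.6 and pandas 2.3.3, and figures with matplotlib 3.10.9. A level is the mean of methylated reads over coverage across cytosines within 1000 bp of a gene end, for at least 3 cytosines, and the calculation was tested on simulated data. Spans came from RefSeq (GRCm38.p6) and strands from the RefSeq promoter table, which held 7 of the 10 genes. The plan had assumed a strand for every gene, so the other 3 are described by coordinate. Named were the 10 genes, genes with an end in their windows, 40 listed relatives (1 of them is not reported here by name), and the 5 highest ends with at least 67 cytosines. The other ends of 50% or more were named after their values were seen. Alternatives changed the read minimum, the window, the weighting, the strand, the libraries, the cytosine minimum and the position of the start.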

Additional observations from a re-analysis of the deposited data

Results flagged for a closer look

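The dense end of Rab4a had 1 library apart from the other 9. Library 3 stood at 71.7%, the nearest library at 74.96% and the highest at 78.3%, so its gap to the nearest was 0.492 of the whole range, above the 95% critical value of Dixon's ratio for 10 libraries. Of 16 measured gene ends looked at in this way, this was the only one past that limit, and chance alone passes it in about 1 of 20. The libraries mix the control and arsenic labels in an unknown order. Without library 3 the Rab4a level was 76.6%, against 76.2% with it.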

How the results depend on the processing

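No setting put the opposite end above the dense end in a gene with both ends measured. The genes were chosen with both ends in view and the settings reuse the same counts, so this is a description and no independent result. The median dense-end level, 59.2%, became 68.2% with at least 20 reads in every library, 63.7% within 500 bp, 66.5% when weighted by reads and 62.6% on the plus strand. The median opposite-end level, 2.58%, became 1.303% within 500 bp, over 5 genes, and 8.84% within 2000 bp. The median difference, 55.2 points, became 62.0 points at 20 reads, 73.7 within 500 bp (without Gdf1, which has no measured 5′ end there), 51.4 within 2000 bp, 60.9 when weighted by reads and 58.4 on the plus strand. Counting each shared window once, a choice made after seeing the data, gave medians of 62.0% at the dense and 3.82% at the opposite ends. Placing starts at the RefSeq start, also chosen then, took the Cercam 5′ level from 56.5% to 8.15%. For Gdf1 this setting used the second of its listed starts, 13990 bp into the span, and took the 5′ level from 17.8% to 34.9%. The first Gdf1 start is the span edge itself, at 17.8%. With at least 30 cytosines, 2.52% of dense ends were at 50% or more. Leaving out each library in turn gave 58.6% to 59.8%, 2.51% to 2.75% and 54.6 to 55.7 points for these medians, and 8.19 to 10.2 points for the median range. No paired analysis was possible because the library numbers of the table are tied to no embryo. Depth limits the Gdf1 5′ end most, with 9 cytosines, and the 4 opposite ends with no measured cytosine say nothing.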

Other observations

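Outside the described set, 8 genes also had a dense end of at least 67 cytosines at 50% or more. Tmem259 and Cers1 share the windows of Grin3b and Gdf1. Col6a2, which encodes a chain of collagen VI, was at 62.7% at its 3′ end, with libraries from 59.8% to 67.8%, and Fam50b at 51.3% at its 3′ end, with libraries from 43.3% to 58.6%. The 5′ dense ends were those of D1Pas1 at 68.2%, Oxct2b at 59.4% and Tmem267 at 54.3%. Oxct2b encodes a ketone-body enzyme of the testis, and its opposite end was at 67.0%, so both ends were methylated. Tmem267 had the widest spread over libraries of the 18 ends, from 33.8% to 69.9%.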
